A study of Mus musculus with 6 samples.

Results

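The immediate early genes examined here are 10 listed genes, namely Fos, Fosb, Jun, Junb, Egr1, Egr2, Egr3, Ier2, Arc and Nr4a1, of which 8 were among the 17068 genes of the count table. Members were matched to the table by name and gene identifier, and their values played no part in that matching. The list itself was chosen with earlier results of these data known. Fosb and Egr2 had no row in the table used and were not analysed here. Bulk RNA-Seq was performed on the lateral cortex of female C57BL/6 embryos at embryonic day 12.5. The 4 controls carried no Cre, and by their labels controls 1, 2 and 4 were Foxp1 fl/+ and control 3 was Foxp1 fl/fl. The 2 embryos labelled Foxp1cKO were Foxp1 fl/fl;Emx1Cre. Emx1Cre acts in progenitors of the dorsal telencephalon and their progeny, so vessel cells, microglia and ventrally born neurons in the same tissue keep the floxed gene intact.

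Immediate early genes are transcribed within minutes of a stimulus from factors already present in the cell, without new protein synthesis. Growth factor signalling through the ERK kinases and SRF, and calcium or cAMP signalling through CREB, are the classical routes to their promoters. Most of their products are transcription factors that act on a later set of genes, and in the brain they are widely read as markers of recent neuronal activity. They also respond to serum, stress and the handling of tissue.

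Foxp1 itself had 59.7, 60.8, 71.2 and 79.1 CPM (counts scaled to a common library size by TMM) in controls 1 to 4, and 83.2 and 76.8 CPM in the libraries labelled Foxp1cKO 1 and 2. Its count was therefore not lower under that label, and reads of the floxed exons are not distinguished in a count per gene. Every direction below rests on the labels. Libraries held 50076008 to 78346979 counts, and 9 of 10 listed radial glia markers and 10 of 11 neuron markers of the labelled tissue were in the table, with summed levels of 2386 to 3245 and 3238 to 5632 CPM. Those without a row were Sox2 and Tubb3, and why they lack one was not tested. In some mature forebrain transcripts, picked after their values were seen and described with Egr1 and Arc, the library labelled Foxp1cKO 2 stood apart. Fold changes of the members are therefore also given without it. Labels do not say whether the embryos of a group came from separate litters, so p-values measure the spread between these samples only.

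Promoter stretches are shown for Fos, Junb, Nr4a1 and Jun, the members of the count table that had a promoter entry. RefSeq promoters (GRCm38.p6) were matched for 6 of the 10 listed genes, with no entry for Egr1, Egr3, Ier2 and Arc. The core of the cAMP response element, TGACG on either strand, which reads as CGTCA where it lies on the other strand, was searched in the 250 bases before each transcript start, as were the full element TGACGTCA, which contains that core, the variant TGACATCA on either strand, the AP-1 site TGANTCA and the CArG box bound by SRF. Each line below is 60 bases read 5′ to 3′ on the gene's strand, with each core, or for Jun the variant, in capitals.
Fos, chr12:85473796-85473855, plus strand, intergenic: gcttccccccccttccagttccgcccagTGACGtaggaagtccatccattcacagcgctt
Junb, chr8:84978823-84978882, minus strand, intergenic: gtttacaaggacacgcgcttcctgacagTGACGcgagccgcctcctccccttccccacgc
Nr4a1, chr15:101266777-101266836, plus strand, within an intron of the longest Nr4a1 transcript: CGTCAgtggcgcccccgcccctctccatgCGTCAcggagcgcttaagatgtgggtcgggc
Jun, chr4:95052234-95052293, minus strand, within the antisense gene Junos: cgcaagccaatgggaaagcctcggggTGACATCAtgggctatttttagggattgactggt
The core began 66 and 129 bases before the start of Fos and 106 bases before that of Junb. Nr4a1 held 4 copies, beginning 40, 69, 213 and 233 bases before its start, and Jun held the TGACATCA variant 45 bases before its start but no TGACG core. Of the 32851 RefSeq promoters, 17.8% held a TGACG core and 2.93% held TGACATCA in the same window. These 4 windows held no full element, AP-1 site or CArG box, which were in 1.55%, 6.75% and 1.47% of all promoters. Of the matched genes outside the table, Fosb held a core beginning 60 bases before its start, and windows of Egr2 transcripts held both the core and a CArG box.

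Fos (chromosome 12, 85473890 to 85477273, plus strand in GENCODE M21) encodes a leucine zipper protein that binds DNA only as a dimer with a Jun protein. It was among the least abundant members, with 21, 24, 36 and 41 counts in controls 1 to 4 and 48 and 105 counts in the libraries labelled Foxp1cKO 1 and 2. Scaled for depth these were 0.339, 0.386, 0.494 and 0.521 CPM against 0.954 and 1.38 CPM. Both libraries labelled Foxp1cKO lay above every control. The log2 fold change was 1.42 (SE 0.29, 95% interval 0.73 to 2.12), the largest among the members, but its adjusted p was 0.228 in the quasi-likelihood test of edgeR (Benjamini-Hochberg). DESeq2's Wald test gave 1.43 with an adjusted p of 0.0208, so the call on Fos differed between the tools. Without the library labelled Foxp1cKO 2 the log2 fold change was 1.11 (SE 0.37, adjusted p = 0.546 from edgeR). Red cell markers, 10 genes summed, were also highest in control 4 and the libraries labelled Foxp1cKO, at 3616, 3909 and 4200 CPM against 1115 to 1473 CPM in controls 1 to 3. Their part in the Fos values was not tested.

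Junb (chromosome 8, 84974484 to 84978718, minus strand) encodes a Jun protein that pairs with Fos and is a weaker activator than Jun at many sites. It had 1.99, 1.77, 1.73 and 2.07 CPM in controls 1 to 4, a narrow range, and 3.14 and 4.43 CPM in the libraries labelled Foxp1cKO. The groups did not overlap. A log2 fold change of 1.00 (SE 0.21, 95% interval 0.50 to 1.51) came with an adjusted p of 0.236 in edgeR's quasi-likelihood test and 0.00294 in DESeq2's Wald test. Without the library labelled Foxp1cKO 2 it was 0.72 (SE 0.25, adjusted p = 0.547 from edgeR). The last 351 bases of Junb overlap Prdx2, a peroxiredoxin gene on the opposite strand. The strand setting of the counting is not given in the sources used here. Prdx2 had 591 to 637 CPM in the controls and 435 and 530 CPM in the libraries labelled Foxp1cKO, the opposite order to Junb.

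Jun (chromosome 4, 95049034 to 95052222, minus strand), the founding partner of Fos in AP-1, was by far the most abundant member. Its levels were 110, 111, 86.2 and 102 CPM in controls 1 to 4 and 110 and 132 CPM in the libraries labelled Foxp1cKO. The library labelled Foxp1cKO 1 lay inside the range of the controls and Foxp1cKO 2 above it. The log2 fold change of 0.25 (SE 0.13, 95% interval -0.05 to 0.55) had an adjusted p of 0.450 in edgeR. It was 0.09 (SE 0.16) without the library labelled Foxp1cKO 2. Junos, the antisense gene that shares 689 bases with Jun, had 8.98 to 9.69 CPM in the controls and 12.2 and 10.9 CPM in the libraries labelled Foxp1cKO, far below the level of Jun.

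Nr4a1 (chromosome 15, 101254269 to 101274795, plus strand) encodes an orphan nuclear receptor, also called Nur77. It had 6.89, 6.44, 7.53 and 8.05 CPM in controls 1 to 4 and 9.06 and 10.9 CPM in the libraries labelled Foxp1cKO. All controls lay below both. The difference was small, with a log2 fold change of 0.46 (SE 0.16, 95% interval 0.09 to 0.84), an unadjusted p of 0.0208 and an adjusted p of 0.315 in edgeR's quasi-likelihood test. It was 0.31 (SE 0.20) without the library labelled Foxp1cKO 2.

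**Figure D1:**
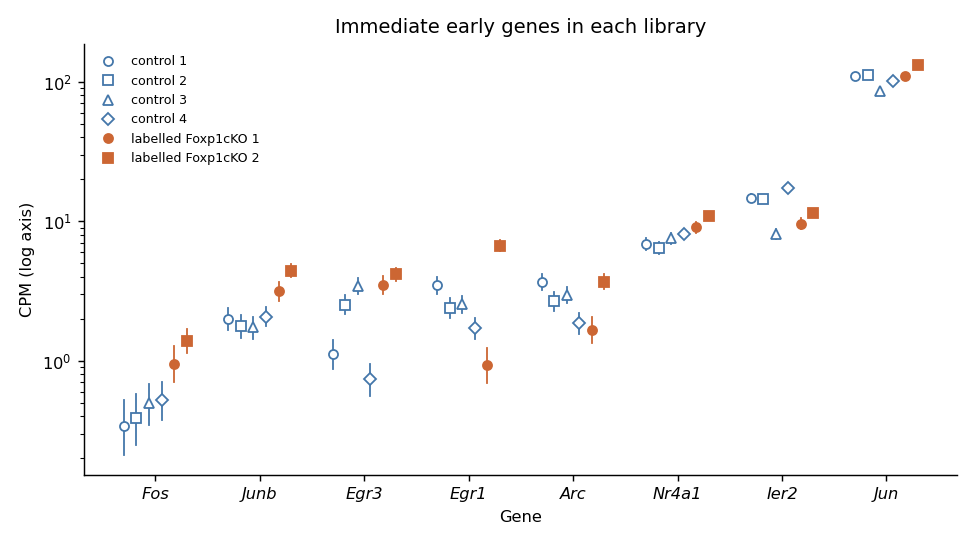
CPM on a log axis for the 8 immediate early genes in the table, ordered by their mean in the controls. Open blue symbols are controls 1 to 4, filled orange symbols the libraries labelled Foxp1cKO 1 and 2, and bars 95% Poisson intervals that cover counting error only. Fos, Junb and Nr4a1 lie above all controls in both orange libraries, while the orange symbols of Egr1 bracket the controls at 0.934 and 6.68 CPM.

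Egr1 (chromosome 18, 34859823 to 34864984, plus strand) encodes a zinc finger factor induced by growth factors and by synaptic activity. The controls had 3.47, 2.38, 2.54 and 1.71 CPM, the library labelled Foxp1cKO 1 had 0.934 CPM and Foxp1cKO 2 had 6.68 CPM. These were the lowest and the highest of the 6 libraries, from 47 and 507 counts. The 7.16-fold difference between the libraries of this group was larger than that of 99.6% of all genes, for which the median was 1.11-fold. A log2 fold change of 0.60 (SE 0.65, adjusted p = 0.728 from edgeR) therefore described neither library. It was 1.40 without Foxp1cKO 1 and -1.45 without Foxp1cKO 2, neither past the threshold.

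Arc (chromosome 15, 74669083 to 74672570, minus strand) encodes a postsynaptic protein that promotes removal of AMPA receptors and is derived from a retrotransposon Gag protein. It had 3.67, 2.66, 2.96 and 1.85 CPM in controls 1 to 4, and 1.67 and 3.69 CPM in the libraries labelled Foxp1cKO 1 and 2. Arc and Egr1 placed all 6 libraries in the same order, from Foxp1cKO 1 through controls 4, 2, 3 and 1 to Foxp1cKO 2. For Arc the counting intervals of Foxp1cKO 1 and control 4 overlapped. Those of Foxp1cKO 2 and control 1 did too, so its extremes are not settled. Pearson's r of their log2 CPM was 0.92 over these 6 libraries, which share their depth and dissection with every other gene. The log2 fold change of Arc was -0.05 (SE 0.38, adjusted p = 0.974 from edgeR), with a value of -0.75 without Foxp1cKO 2 and 0.41 without Foxp1cKO 1.

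A number of transcripts of the mature forebrain were highest in Foxp1cKO 2, as was Egr1 and, by less than its counting interval, Arc. A list of 20 such genes was written after the values were seen and is given without a test. Of these, 15 were highest in the library labelled Foxp1cKO 2. Penk, Itpka, Pdyn, Syndig1l, Icam5 and Kcnj4 on it were also among the genes most like the members' mean, which was itself highest there. The count therefore cannot be set against the 13.7% of all genes highest in that library. Penk, the enkephalin precursor of striatal projection neurons, had 16.4 CPM there and 0.660 to 1.67 CPM in the other 5 libraries. Ddn, a dendritic protein, had 15.9 CPM against at most 1.77 CPM. For Nrgn, the postsynaptic calmodulin-binding neurogranin, the values were 10.3 CPM against at most 2.05 CPM, and for Ppp1r1b, the striatal phosphatase regulator DARPP-32, 36.6 CPM against at most 14.2 CPM. Among 5 measured myelin genes, 3 were also highest there, among them Mbp and Mal at 56.6 and 4.09 CPM against at most 27.3 and 0.715 CPM. Cldn11 was highest in control 1 (15.1 CPM, and 9.41 CPM in Foxp1cKO 2) and Ermn in control 2 (4.17 CPM, and 3.12 CPM). Slc17a7, a glutamate transporter gene of mature cortical neurons on the mature forebrain list, lay within the range of the controls at 39.6 CPM. Camk2a and Cck on that list were highest in Foxp1cKO 1, at 94.3 and 5.09 CPM, with 88.0 and 0.870 CPM in Foxp1cKO 2. Pde10a and Pde1b were highest in controls 3 and 1, at 96.9 and 125 CPM, with 93.2 and 112 CPM in Foxp1cKO 2. Controls held 49.5 to 83.1 CPM of Camk2a, so not every listed gene was near absent at this stage. The part of these transcripts in the levels of Egr1, Arc or any other member was not tested. Fewer cells of a type and less RNA per cell cannot be told apart in bulk samples.

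**Figure D2:**
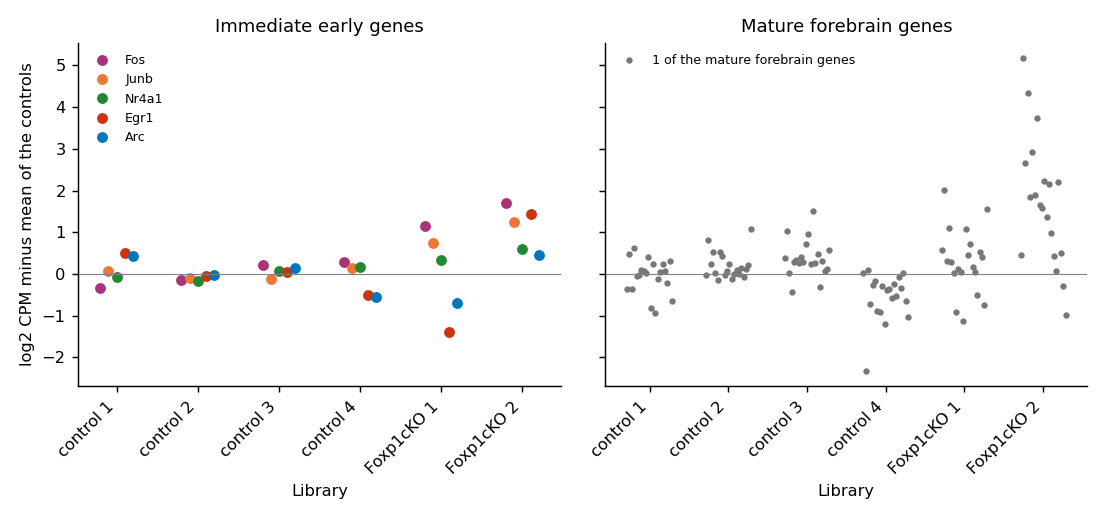
Log2 CPM minus the mean log2 CPM of the controls, by library, for Fos, Junb, Nr4a1, Egr1 and Arc (left) and for each of 20 mature forebrain genes as a grey point (right). Egr1 and Arc are lowest in Foxp1cKO 1 and highest in Foxp1cKO 2, for Arc by less than the counting interval. Of the 20 grey genes, 15 are highest in Foxp1cKO 2. The list of grey genes was written after the values were seen.

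Egr3 (chromosome 14, 70077203 to 70082614, plus strand), a zinc finger factor often induced with Egr1, had another pattern. Its levels were 1.11, 2.53, 3.43 and 0.737 CPM in controls 1 to 4 and 3.48 and 4.17 CPM in the libraries labelled Foxp1cKO. Both of these were above every control, but Foxp1cKO 1 exceeded control 3 by less than the counting interval of either. The controls spanned a 4.66-fold range, the widest of the members. A log2 fold change of 0.97 (SE 0.57, adjusted p = 0.502 from edgeR) was thus within that spread, and it was 0.81 (SE 0.80) without Foxp1cKO 2. Without control 3 it was 1.38, and without control 4 it was 0.70. The study, with litter in its model, listed Egr3 among its top upregulated genes. Among the controls Egr3 followed the neuron markers, whose sums were 4391, 5305, 5632 and 3238 CPM in controls 1 to 4, and the libraries labelled Foxp1cKO had 4177 and 4470 CPM of these markers. The part of the neuron markers in the Egr3 values was not tested.

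Ier2 (chromosome 8, 84661331 to 84662852, minus strand), a small nuclear protein gene induced by serum, was the only member whose mean was more than a few percent lower under the Foxp1cKO label. It had 14.6, 14.4, 8.09 and 17.3 CPM in controls 1 to 4 and 9.62 and 11.5 CPM in the libraries labelled Foxp1cKO. Only control 3 lay below both, and through it the groups overlapped. The log2 fold change was -0.37 (SE 0.29, 95% interval -1.05 to 0.32, adjusted p = 0.615 from edgeR), and -0.51 (SE 0.40) without Foxp1cKO 2. It was -0.56 without control 3 and -0.23 without control 4. Ier2 and Egr3 ran against each other over the 6 libraries (r = -0.80).

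**Figure D3:**
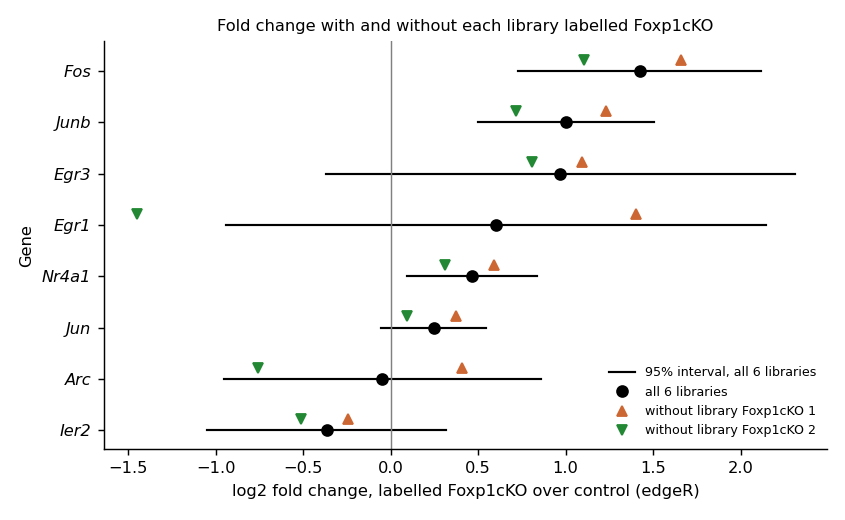
Log2 fold change of each immediate early gene (edgeR), labelled Foxp1cKO over control, where black points and lines are the estimate and its 95% interval over all 6 libraries and triangles leave out a library labelled Foxp1cKO. The points of Fos, Junb, Nr4a1, Egr3 and Jun stay above 0 in either case, while Egr1 goes from 1.40 to -1.45 and Arc from 0.41 to -0.75. Triangles carry no interval, and without Foxp1cKO 2 Jun is at 0.09 (SE 0.16) and Egr3 at 0.81 (SE 0.80).

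Across the list, 0 of the 8 members had an adjusted p under 0.05 in edgeR's quasi-likelihood test, where 26 of all 17068 genes did (0.152%). At an unadjusted p under 0.05 there were 3 of 8, Fos, Junb and Nr4a1, all higher, against 13.0% of all genes in either direction. Both libraries labelled Foxp1cKO were above every control for 4 of the 8 members (Fos, Junb, Egr3 and Nr4a1) and for 11.5% of all genes. They were below every control for 0 of the 8 and for 13.1% of all genes. Limma on the VST values called 0 of the 8, and DESeq2's Wald test called 2, Fos and Junb, and 3.36% of the genes it adjusted. The members' median log2 fold change was 0.53, beside -0.0044 over all genes, and 0.20 without the library labelled Foxp1cKO 2.

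Fos, Junb and Nr4a1 shared a pattern over the libraries, although they ordered controls 1 to 3 differently. In each of them control 4 was the highest control, Foxp1cKO 1 came next and Foxp1cKO 2 was highest of all. Pearson's r of log2 CPM over the 6 libraries was 0.97 for Fos and Nr4a1, 0.94 for Fos and Junb, and 0.93 for Junb and Nr4a1. These are the members with an unadjusted p under 0.05 in edgeR, so the difference between the groups enters each r. The same measure was 0.15 for Fos and Egr1 and -0.10 for Fos and Arc. The 8 members thus did not vary as a single unit. The mean log2 CPM of the members differed from its control average by -0.15 to 0.05 in the controls, 0.11 in Foxp1cKO 1 and 0.85 in Foxp1cKO 2. Among 14353 other genes with a mean of at least 50 counts, the 10 whose log2 CPM was most like that mean over the 6 libraries were L3hypdh, Penk, Mal, Itpka, Pdyn, Syndig1l, Npas2, Aldh6a1, Icam5 and Kcnj4 (r = 0.97 to 0.99). All 10 were highest in Foxp1cKO 2, which follows from how they were picked, since the members' mean is itself highest there.

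Per kilobase of exon, the control means of the members covered a wide range. Jun had 32.1 ± 3.61 CPM per kb (SD, n = 4), above 91.6% of all genes, followed by Ier2 at 8.93 ± 2.56 and Nr4a1 at 2.06 ± 0.202. Arc (0.911 ± 0.246) and Junb (0.821 ± 0.0718), neighbours in this order, did not differ beyond their spread, and neither did Egr1 (0.563 ± 0.162) and Egr3 (0.443 ± 0.284). Fos was lowest at 0.185 ± 0.0367 CPM per kb, above 9.76% of genes. Of the summed CPM per kb of Jun, Junb, Jund, Fos and Fosl2, the AP-1 genes of the table compared here, Jund made up 64.2% and Jun 34.1% in the controls. Fos was at 0.157% to 0.245% of that sum in the controls and was at 0.436% and 0.560% in the libraries labelled Foxp1cKO, and Junb was at 0.734% to 0.995% and then 1.47% and 1.83%. The members that separated the groups were thus minor parts of the AP-1 transcripts. Within the NR4A receptors, Nr4a1 was 15.7% to 22.7% of the summed CPM per kb in the controls and 26.7% and 28.7% in the libraries labelled Foxp1cKO, while Nr4a2 was the most abundant in all 6 libraries.

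A further 60 immediate early genes were read from the same fit, of which 55 were in the table. Of these 0 passed edgeR's threshold and 8 had an unadjusted p under 0.05 (5 higher and 3 lower), a share close to the 13.0% of all genes. Both libraries labelled Foxp1cKO were above every control for 11 (all genes, 11.5%) and below for 4 (all genes, 13.1%). Their median log2 fold change was -0.02, unlike the 0.53 of the listed members. Highest were Ier3, a regulator of cell survival (1.25, SE 0.27), Npas4, the neuronal factor induced by calcium entry (1.19, SE 0.52), and Maff, a small Maf protein (1.12, SE 0.24). Npas4 had 0.291 to 1.32 CPM in the controls and 1.77 and 1.503 CPM in the libraries labelled Foxp1cKO. DESeq2 called Ier3, Maff and Bhlhe40, of which Bhlhe40 is also listed below as a target of HIF-1. Lowest were Nr4a3, an NR4A receptor (-0.89, SE 0.58), Ier5, related to Ier2 (-0.44, SE 0.20), and Btg2, an antiproliferative gene of neurogenic progenitors (-0.35, SE 0.11). None of these 6 passed edgeR's threshold.

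Genes downstream of the members were read the same way. Of 23 late response genes, which neurons induce after the immediate early genes, 21 were in the table, 0 passed edgeR's threshold and 5 had an unadjusted p under 0.05, all higher, against 1115 of the 17068 genes that were higher at this level. DESeq2 called 1, the cell cycle inhibitor gene Cdkn1a. Over these 21 genes the median was 0.18 on the log2 scale. Penk had the highest value (2.76, SE 0.80) and was inside the range of the controls in Foxp1cKO 1. Vgf, a secreted neuropeptide precursor, followed with 0.444 to 1.03 CPM in the controls and 1.57 and 2.69 CPM in the libraries labelled Foxp1cKO, and Rgs4, a regulator of G protein signalling, with 2.90 to 5.65 CPM and then 6.62 and 13.0 CPM. The lowest were Mmp9, Rasl11a and Timp1, at -0.47, -0.34 and -0.27.

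**Figure D4:**
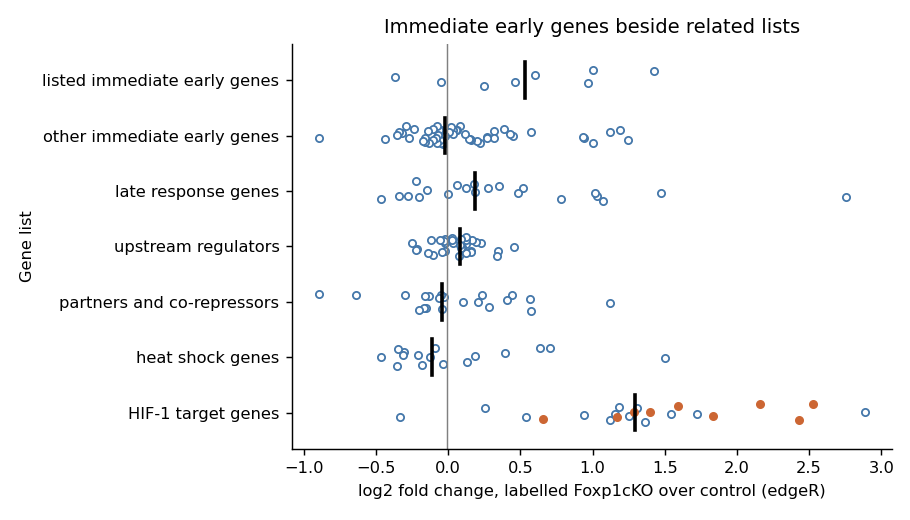
Log2 fold change (edgeR), labelled Foxp1cKO over control, of each gene in 7 lists. Filled orange points passed an adjusted p of 0.05, black bars are list medians and the grey line is the median of all genes. The listed immediate early genes have a median of 0.53 with 0 genes called, the HIF-1 targets 1.3 with 9 called (all genes, 0.152%). Several HIF-1 targets were reported as upregulated by the study from these same libraries.

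The kinases and factors that act upstream of the members were read next. All 32 listed regulators were in the table, 0 passed the threshold in edgeR, DESeq2 or limma, and 5 had an unadjusted p under 0.05 in edgeR (3 higher and 2 lower), where 13.0% of all genes did. Their median log2 fold change was 0.08 and their range -0.25 to 0.46. The ERK kinase gene Map2k1 was at the upper end (0.46, SE 0.13) and its close relative Map2k2 at the lower (-0.25, SE 0.07). Crem and Crebbp, a CREB family factor and the CREB coactivator, were at 0.35 and 0.34, and the activity-dependent factor Mef2c at -0.22. Of 23 partners and co-repressors, 21 were in the table and 0 passed in edgeR, with 3 at an unadjusted p under 0.05, all higher (all genes in either direction, 13.0%), and a median of -0.04. DESeq2 called 1 of them, Maff. Besides Maff and Nr4a3, the extremes were Atf3 (0.57), Rxrg (0.56), Maf (-0.30) and Batf3 (-0.64).

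Other transcripts differed between the groups beside the members. HIF-1 targets gave 9 of 22 genes past edgeR's threshold (all genes, 0.152%), all higher, with a median log2 fold change of 1.3. DESeq2 called 20 of the 22, all higher, and 3.36% of the genes it adjusted. Several on this list, such as Vegfa, Slc2a1 and Ldha, were reported as upregulated by the study from these same libraries, so the list is not independent of them. Those past edgeR's threshold were Bnip3, Adm, Pdk1, Vegfa, Aldoa, P4ha1, Pfkl, Slc2a3 and Ero1l. Of 16 heat shock genes 0 passed in edgeR, 6 had an unadjusted p under 0.05 (1 higher and 5 lower; all genes, 13.0%), DESeq2 called 3 lower (Dnaja1, Dnajb1 and Hspa5), and the median was -0.11. Hspa1a, the highest of the 16 by log2 fold change, had 0.123 to 0.330 CPM in the controls and 0.556 and 0.580 CPM in the libraries labelled Foxp1cKO. Hspa8, the lowest, had 1194 to 1598 CPM and then 896 and 1062 CPM. Among markers of other cells, 1 endothelial gene of 10, Flt1, passed in edgeR (1.64, SE 0.16), and DESeq2 called Flt1, Pecam1, the mural gene Rgs5 and the red cell gene Hba-a1, all higher. Control libraries and then libraries labelled Foxp1cKO had sums of 145 to 222 and 203 to 251 CPM for the 10 endothelial markers, 74.2 to 94.5 and 116 to 124 CPM for 7 mural markers, and 27.3 to 56.9 and 49.2 to 53.5 CPM for 10 microglial markers. They were 101 to 587 and 159 to 355 CPM for 9 mesenchymal markers, 232 to 824 and 384 to 515 CPM for 8 ventral telencephalic markers, and 647 to 877 and 616 to 702 CPM for 6 intermediate progenitor markers. Of the ventral sums, the 824 CPM was that of control 3, with at most 356 CPM in the other controls. No marker was at 0 in all libraries, and the part of any of these in the members' values was not tested.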

How the data were processed

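Bulk RNA-Seq libraries of E12.5 lateral cortex were prepared by the authors with a stranded kit, aligned to mm10 with STAR and counted on genes with HTSeq 0.9.1, and low genes were removed. The deposited counts are whole numbers without normalization. The deposited VST values are on a log2 scale and entered 1 alternative (limma). Counts of all 17068 genes were compared between 4 controls and 2 libraries labelled Foxp1cKO with edgeR 4.0.16's quasi-likelihood test (TMM, group alone, Benjamini-Hochberg adjustment, threshold 0.05) in R 4.3.3. The litter in the authors' model is not in the labels. The members and lists were chosen with earlier results of these data known. Log2 CPM used a prior count of 2. A floor of 3 counts is 0.0383 to 0.0599 CPM, and intervals cover counting error only, since PCR copies are not independent molecules. The chi-square per gene between libraries of a group was 25.9 or more, well above sampling noise. Positions and exon lengths came from GENCODE M21, which held 17047 identifiers.

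Genes named were the members, Foxp1, from each other list the genes past the threshold or else the 3 highest and 3 lowest with a mean of at least 10 counts, and the 10 most like the members' mean. Mature forebrain and myelin genes, overlapping neighbours, Bhlhe40, Bag3, Cdkn1a, other genes called by DESeq2 alone and AP-1 and NR4A relatives were chosen after their values were seen, and not every marker gene the rule allows is named. A few genes the rule allows are not reported here. Alternatives were DESeq2's size factors, total counts, DESeq2 1.42.0, limma 3.58.1, a filter of 1 CPM in 2 libraries, a robust fit, each library left out and a replicate block. Tests were tried on simulated counts.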

Additional observations from a re-analysis of the deposited data

How the results depend on the processing

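With edgeR, DESeq2's size factors, total counts, the robust fit and the filter left 0 members and 0 other immediate early genes past the threshold, as did limma and each library left out. DESeq2's Wald test called 2 members, 3 other immediate early genes and 507 genes in all, against 26 in edgeR. Leaving out a library gave 2 to 96 genes in all, with 6 without control 1, 2 without control 2, 96 without control 4, 9 without Foxp1cKO 1 and 3 without Foxp1cKO 2. The median over the members, 0.53, was 0.29 on the VST values, whose scale shrinks low genes, and 0.47 under the filter, which removed Fos. It ran from 0.20 to 0.84 with a library left out, the lowest without Foxp1cKO 2, the highest without Foxp1cKO 1, and 0.59 without control 1. Arc turned positive without control 1 (0.09) and without Foxp1cKO 1 (0.41, and -0.75 without Foxp1cKO 2), and Egr1 negative without Foxp1cKO 2 (-1.45, and 1.40 without Foxp1cKO 1). Fos, Jun, Junb, Egr3 and Nr4a1 stayed positive and Ier2 negative under each alternative that gave them a value. A block on the replicate numbers left 0 genes past the threshold, 3027 had an unadjusted p under 0.05, the median was 0.35 and Egr1 was at -0.13. Deviations of same-numbered libraries correlated at -0.20 and 0.02. Both values rest on the same contrast between the 2 libraries labelled Foxp1cKO, so they cannot show whether the numbers pair the samples. The causes of these shifts were not tested beyond those named. Low counts limit Fos most, where the lowest library held 21 counts.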

Other observations

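Heat shock genes had differences in both directions. Both libraries labelled Foxp1cKO were below every control for 6 of the 16 genes (13.1% of all genes) and above for 2, Hspa1a and Hspa1b (11.5% of all genes). Hspa1a, Hspb1, Hspa1b and Bag3 had the highest log2 fold changes, 1.5 (SE 0.43), 0.71 (SE 0.48), 0.64 (SE 0.34) and 0.39 (SE 0.21). Hspa1a and Hspb1 had means of only 21.3 and 18.8 counts. Hspa8, Hsph1 and Dnajb1 had the lowest log2 fold changes, -0.47 (SE 0.14), -0.35 (SE 0.10) and -0.35 (SE 0.08). None of these 7 had an adjusted p under 0.05 in edgeR's quasi-likelihood test, and 5 of the 16 were lower and 1 higher at an unadjusted p under 0.05. Hspb1 had 0.616 CPM in the library labelled Foxp1cKO 1 and 0.198 CPM in Foxp1cKO 2, against 0.206 to 0.292 CPM in the controls.

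Cdkn1a, a cell cycle inhibitor on the list of late response genes, gave the smallest p of that list. It had 4.67, 5.92, 5.17 and 6.07 CPM in controls 1 to 4 and 11.1 and 11.2 CPM in the libraries labelled Foxp1cKO, which lay close together and above every control. Its log2 fold change was 1.03 (SE 0.16, adjusted p = 0.0919 from edgeR). DESeq2's Wald test called it. Cdkn1a was chosen after its values were seen.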
